A study of Mus musculus with 12 samples.

Results

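Promoter regions that carried an ATAC-seq peak in every library of the study are described here. ATAC-seq maps open DNA with a transposase that inserts sequencing adapters where nucleosomes leave room. The 12 libraries came from 2 mouse tumour lines, 3 libraries for each of 4 groups: the mammary carcinoma line 4T1 given 1 µM DAC for 48 h, 4T1 control, the melanoma line B16F10 given 0.1 µM DAC for 48 h, and B16F10 control. DAC is decitabine, a cytidine analogue that is incorporated during replication and traps DNA methyltransferases. Because the doses differed, line and dose cannot be told apart in any comparison of the DAC effects. The sources used here do not say which of the study's sequencing instruments read which library. A difference of instrument therefore cannot be told apart from line, nor from DAC treatment within a line. Dead cells were removed before the assay, and both lines are established cultures. Nothing in the labels says that the 3 libraries of a group came from separate cultures, so p-values reflect the scatter among 3 libraries that could be technical repeats.

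Peak calling had been done by the authors separately for every library. Peaks of the 12 libraries on chromosomes 1 to 19 and X that overlapped by at least 1 bp were joined into 179441 merged regions, and 22561 of these held a peak in all 12 libraries. A region was kept as a constitutive promoter region when it also overlapped the annotated 5′ end of a protein-coding gene, plus or minus 1000 bp. This left 9021 regions, at 10153 of 21755 protein-coding genes (46.7%). The peak calls of all 12 libraries chose these regions, so that a region lost or gained in a group could not be a member, and their number, width, strength and base content are descriptions without a test. They are set beside 13540 constitutive distal regions, which had a peak in all 12 libraries away from such a 5′ end, and 6032 other promoter regions, which had a peak in 1 to 11 libraries. Of the distal regions, 1791 (13.2%) held the start of another annotated transcript of a protein-coding gene.

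Constitutively open promoters in mammals mostly lie in CpG islands, stretches rich in the dinucleotide CG that usually stay free of DNA methylation. They serve genes needed by all cells, such as those for ribosomes, RNA processing, respiration and replication, and they bind broadly expressed factors such as NRF1, the ETS factors GABPA and ELF1, SP1, NFY and YY1. Binding of NRF1 to DNA is blocked by methylation of its site. Promoters of tissue-specific genes more often lack CpG islands and use a TATA box.

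The sequences of 8 member promoters are shown because they span the base content of the set and carry its largest changes. Each is 170 bases before to 30 bases after the annotated 5′ end of the gene, read 5′ to 3′ on the gene's strand from GRCm38 (the RefSeq copy of the assembly that mm10 names), with every CG in capitals. Pex7 (chr10:19907660-19907859, minus strand) had the highest mean percentile of fold enrichment, as defined below, of all members. Foxk2 (chr11:121259820-121260019, plus strand) and Gm14296 (chr2:176927780-176927979, minus strand) are from the members with most and fewest CG around the summit. Rps9 (chr7:3703823-3704022, plus strand), Nrf1 (chr6:30047818-30048017, plus strand) and Cacng2 (chr15:78119999-78120198, minus strand) rose in rank in DAC-treated 4T1 cells. The region of 2210016L21Rik (chr5:114941988-114942187, plus strand) had the largest fall there, and Fggy (chr4:95557337-95557536, plus strand) the largest rise in DAC-treated B16F10 cells.
Pex7: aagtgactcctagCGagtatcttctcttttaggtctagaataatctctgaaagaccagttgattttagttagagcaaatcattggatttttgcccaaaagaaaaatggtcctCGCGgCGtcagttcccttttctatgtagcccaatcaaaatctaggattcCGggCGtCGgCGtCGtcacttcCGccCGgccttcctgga
Foxk2: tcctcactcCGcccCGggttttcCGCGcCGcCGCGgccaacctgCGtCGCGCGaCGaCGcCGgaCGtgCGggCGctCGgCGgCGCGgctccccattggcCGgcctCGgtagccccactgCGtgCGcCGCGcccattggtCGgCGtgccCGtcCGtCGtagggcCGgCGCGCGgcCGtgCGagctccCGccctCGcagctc
Gm14296: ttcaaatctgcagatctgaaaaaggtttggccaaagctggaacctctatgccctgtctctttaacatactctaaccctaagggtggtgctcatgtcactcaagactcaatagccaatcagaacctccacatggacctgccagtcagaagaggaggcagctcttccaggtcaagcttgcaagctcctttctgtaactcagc
Rps9: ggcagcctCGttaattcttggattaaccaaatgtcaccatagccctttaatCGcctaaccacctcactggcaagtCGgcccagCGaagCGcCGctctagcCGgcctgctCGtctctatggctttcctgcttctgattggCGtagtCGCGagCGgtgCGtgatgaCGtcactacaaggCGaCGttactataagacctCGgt
Nrf1: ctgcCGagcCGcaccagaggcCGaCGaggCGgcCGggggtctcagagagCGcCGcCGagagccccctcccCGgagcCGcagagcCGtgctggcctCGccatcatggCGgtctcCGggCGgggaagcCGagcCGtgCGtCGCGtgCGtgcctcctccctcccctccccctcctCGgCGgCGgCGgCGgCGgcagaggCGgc
Cacng2: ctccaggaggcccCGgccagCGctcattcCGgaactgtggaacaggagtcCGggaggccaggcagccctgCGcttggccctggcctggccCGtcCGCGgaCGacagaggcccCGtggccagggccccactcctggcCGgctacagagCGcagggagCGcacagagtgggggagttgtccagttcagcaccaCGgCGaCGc
2210016L21Rik: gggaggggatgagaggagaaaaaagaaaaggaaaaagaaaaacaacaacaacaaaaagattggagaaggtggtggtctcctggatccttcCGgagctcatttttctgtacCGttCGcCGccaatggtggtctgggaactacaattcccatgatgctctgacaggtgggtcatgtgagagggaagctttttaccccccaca
Fggy: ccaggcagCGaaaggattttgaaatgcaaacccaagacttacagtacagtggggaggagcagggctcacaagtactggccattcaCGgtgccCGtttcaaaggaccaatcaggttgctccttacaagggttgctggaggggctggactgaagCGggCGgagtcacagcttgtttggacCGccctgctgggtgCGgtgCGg
These stretches held 11 CG in Pex7, 40 in Foxk2, 0 in Gm14296, 17 in Rps9, 29 in Nrf1, 16 in Cacng2, 4 in 2210016L21Rik and 8 in Fggy. The summits of Pex7, Nrf1, Cacng2 and 2210016L21Rik lay 217, 87, 89 and 49 bp downstream of the 5′ end, outside the stretches shown. For these genes the CG counts and strings describe the 5′ end and not the summit. The letters CCAATCA, a form of the NFY site, were found on either strand in the Pex7, Gm14296, Rps9 and Fggy stretches, and TGACGTCA, the cAMP response element, in that of Rps9. The stretch of Cacng2 held GGAATG, a TEAD site. That of 2210016L21Rik held the ZFP143 string and CCGGAAG, an ETS site. The share of all 5′ ends with each string is given with the motif counts.

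Member regions lay over the 5′ ends of their genes. The summit of the strongest peak had a median position of 2 bp upstream of the nearest 5′ end, with quartiles of -80 and 76 bp, and 57.9% of summits lay within 100 bp and 77.8% within 250 bp. In 436 regions (4.83%) the summit was more than 1000 bp away, as in the region of Cfd, the gene of complement factor D, where it lay 2040 bp downstream. The merged region covered the 5′ end itself in 8459 cases (93.8%). The summit of a region was the library summit nearest to the median of the 12. The spread was the median distance of the 12 library summits from it. This spread had a median of 5 bp over members and was at most 100 bp in 94.1% of them. Being a median, it does not show that all 12 summits coincided. At the edge of the distance rule, 54 members reached only to between 901 and 1000 bp from the 5′ end, with a median fold enrichment of 8.63 and 4.0 CpG per 100 bases, and 51 distal regions stopped just outside it, with a median of 8.06 and 3.0 CpG per 100 bases. At the edge of the call rule, 106 promoter regions had a peak in 11 of 12 libraries, with a median lowest fold enrichment of 3.38 over those 11 libraries, beside 11.4 over the 12 libraries in members.

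Most member regions served 1 gene, but shared promoters were common. Of the 9021 regions, 7762 overlapped 1 gene start zone, 1212 overlapped 2, 44 overlapped 3 and 3 overlapped 4. In 676 regions (7.49%) 2 genes started in opposite directions, against 1.03% of the other promoter regions. The regions with 4 genes included that of Bola1 and the histone genes Hist2h2ab, Hist2h2ac and Hist2h2be, and the region with Asdurf, Asnsd1 and Gm28551 was among those with 3. The share of protein-coding genes at a member region was between 37.5% and 56.8% on the autosomes, against 29.2% (277 of 948) on the X chromosome.

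CpG content set members apart from constitutive distal regions. In the 200 bases around the summit, members had a median of 9.0 CpG per 100 bases (quartiles 6.5 and 11.5), constitutive distal regions 1.5 and other promoter regions 3.5. The median GC content was 65.5% in members, 52.5% in distal regions and 58.0% in other promoter regions. An island-like window, with a CpG observed to expected ratio above 0.6 and GC above 50.0%, was found in 7434 members (82.4%, exact 95% interval 81.6 to 83.2, counting error only), 12.4% of distal regions and 38.3% of other promoter regions. Measured over the whole merged region, the share of members was 73.6%.

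**Figure D1:**
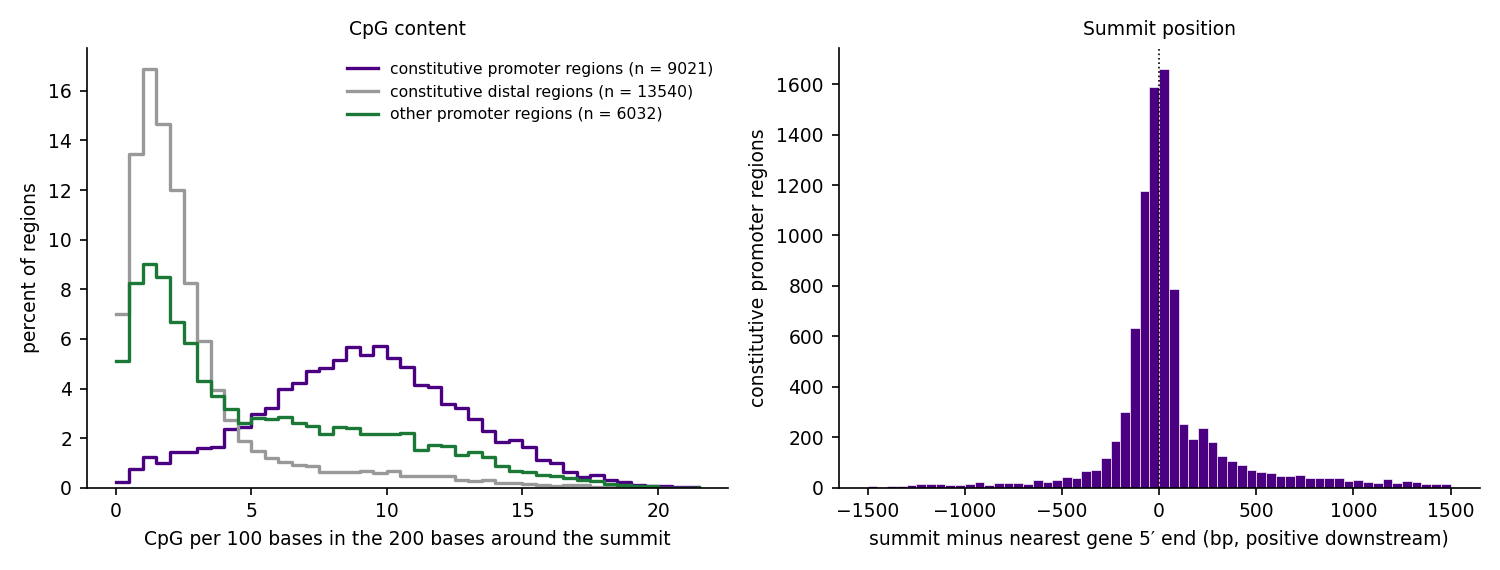
CpG content and position of constitutive promoter regions. Left, percent of regions (vertical axis) by CpG per 100 bases in the 200 bases around the summit (horizontal axis) for 9021 constitutive promoter regions, 13540 constitutive distal regions and 6032 other promoter regions; the promoter regions peak near their median of 9.0 and the distal regions near 1.5. Right, number of constitutive promoter regions by distance in bp from the nearest gene 5′ end to the summit; 109 summits lie beyond 1500 bp and are not drawn.

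The members with the highest CpG density were the regions of Foxk2, a forkhead factor, and Pom121, a nuclear pore protein, with 21 CpG per 100 bases each, followed by Lrrc58, Nfil3, Acaca with Tada2a, and Gm49356 with Rnf139 at 20 to 20.5. The windows of Gm14296, 2210418O10Rik, C1rl, the pair Tmem176a and Tmem176b, Npl and Trappc3l held no CG. Foxk2 and Gm14296 nevertheless overlapped in strength, with percentiles among constitutive regions (defined below) of 77.7 to 94.2 and 59.5 to 87.7 over the 12 libraries. Across the 9021 regions, which share the same libraries, the Spearman correlation of CpG density was 0.051 with the mean percentile and 0.154 with width. The first is of little use as a summary, because the percentile was highest at middle CpG densities, as given below for bins of CpG.

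Short letter strings of promoter factors were more frequent in members than in constitutive distal regions. Each string, spelled out below where it has under 10 letters, was sought on both strands in the 200 bases around the summit, and, for reference, in the same length around all 21755 annotated 5′ ends; a match is only a match of letters. The ETS string CCGGAAG was in 17.9% of members, 3.18% of distal regions and 9.66% of all 5′ ends. The NRF1 string was in 9.68%, 0.990% and 5.30% of these, the SP/KLF string GGGGCGGGG in 17.5%, 2.70% and 12.1%, and the NFY string CCAATCA in 10.5%, 2.99% and 6.40%. Among rarer strings, that of YY1 was in 1.97% of members, 0.162% of distal regions and 1.22% of all 5′ ends. The BANP string was in 1.06%, 0.0665% and 0.542%, and the ZFP143 string in 0.576%, 0.0591% and 0.253%.

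Strings of enhancer factors and of insulators were less frequent in members than in constitutive distal regions. TGANTCA of AP-1 was in 4.09% of members, 19.6% of distal regions and 4.12% of all 5′ ends. The shares were 6.61%, 14.6% and 8.03% for GGAATG of TEAD, 1.97%, 6.16% and 3.08% for TGTGGTT of RUNX, and 0.211%, 3.05% and 0.0322% for the string of CTCF. The TATA string TATAAA was in 2.13% of members, against 8.12% of all 5′ ends. The CRE string and the E-box were more frequent in members than in distal regions. TGACGTCA of CRE was in 3.02% of members, 0.783% of distal regions and 2.03% of all 5′ ends. The E-box CACGTG, bound by MYC and other factors, was in 8.26%, 4.26% and 5.70%. Each string was counted on its own, so 1 window can hold several, overlapping ones included. Members are richer in GC and CpG than distal regions, and several strings, such as those of ETS, NRF1 and SP/KLF, hold CG. Shares expected from base content alone were not computed, so these differences are not shown to be particular to the factors.

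Member regions were broader than the other classes. The merged width had a median of 1346 bp, quartiles of 1097 and 1688 bp and a range of 353 to 4463 bp, against a median of 915 bp in constitutive distal regions and 591 bp in other promoter regions. The widest was at Ubtf, the gene of the upstream binding factor of RNA polymerase I (4463 bp), followed by Ssbp4 (4220 bp), Tns2, a tensin of focal adhesions (4155 bp), Rhod, a small GTPase (4006 bp), Jade2, a subunit of a histone acetyltransferase complex (4001 bp), and Dbp, a clock-controlled transcription factor (3961 bp). The widest regions were not the strongest: these 6 lay between the 2.7 and 50.5 percentile of fold enrichment in all 12 libraries. Across members, width and mean percentile had a Spearman correlation of -0.361 (n = 9021 regions in the same libraries).

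Strength was taken as the fold enrichment of a region's strongest peak over the background of its own library, a value of the authors' peak caller. Because it depends on the library, tests used its rank only, and fold values of different libraries are set side by side as a description. In each library the 22561 constitutive regions were given percentiles of fold enrichment, 0 lowest and 100 highest. Ranks among one fixed set of regions are relative, so a fall of distal regions must raise promoter regions. Open DNA in more cells and wider opening per cell cannot be told apart in such bulk libraries. The libraries listed 50126 to 119795 peaks each, and their read depths are not known, apart from a lower bound in the labels. Library B16F10 DAC 2 listed no peak off the assembled chromosomes, where the others listed 504 to 1192; such peaks were not used.

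Of the 2 lines, 4T1 had more peaks, and members were accordingly a smaller part of its accessible DNA. On the chromosomes used there were 112289 ± 5476 peaks in DAC-treated 4T1 libraries and 91978 ± 2224 in 4T1 controls, against 55515 ± 2536 in DAC-treated B16F10 libraries and 52051 ± 2121 in B16F10 controls (SD, n = 3 each). Members took 18.1% ± 0.431 of all peak bases in DAC-treated 4T1 libraries, 21.1% ± 0.301 in 4T1 controls, 28.3% ± 0.901 in DAC-treated B16F10 libraries and 29.4% ± 0.932 in B16F10 controls (SD, n = 3 each). The number of members split into 2 or more peaks was 651 to 699 in DAC-treated 4T1 libraries and 440 to 467 in 4T1 controls, and 348 to 380 in DAC-treated B16F10 libraries and 292 to 318 in B16F10 controls. In each line the DAC and control libraries did not overlap in that number.

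The median fold enrichment of members was 13.5 ± 0.012 in DAC-treated 4T1 libraries and 13.9 ± 0.038 in 4T1 controls, and 13.2 ± 0.177 in DAC-treated B16F10 libraries and 14.2 ± 0.222 in B16F10 controls (SD, n = 3 each). The constitutive distal regions had medians of 8.46 ± 0.058 and 11.3 ± 0.063 in the same 4T1 groups, and 9.66 ± 0.275 and 10.5 ± 0.252 in the same B16F10 groups. The median percentile of members was 69.6 ± 0.050 in DAC-treated 4T1 libraries, against 59.5 ± 0.158 in 4T1 controls (SD, n = 3 each). It was 68.0 ± 0.949 in DAC-treated B16F10 libraries, against 66.8 ± 0.813 in B16F10 controls (SD, n = 3 each). Members, which were 40.0% of the constitutive regions, made up 71.4% ± 0.156 of the regions at or above the 90 percentile in DAC-treated 4T1 libraries and 47.2% ± 0.510 in 4T1 controls, and 69.8% ± 1.87 in DAC-treated B16F10 libraries and 66.5% ± 2.68 in B16F10 controls.

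**Figure D2:**
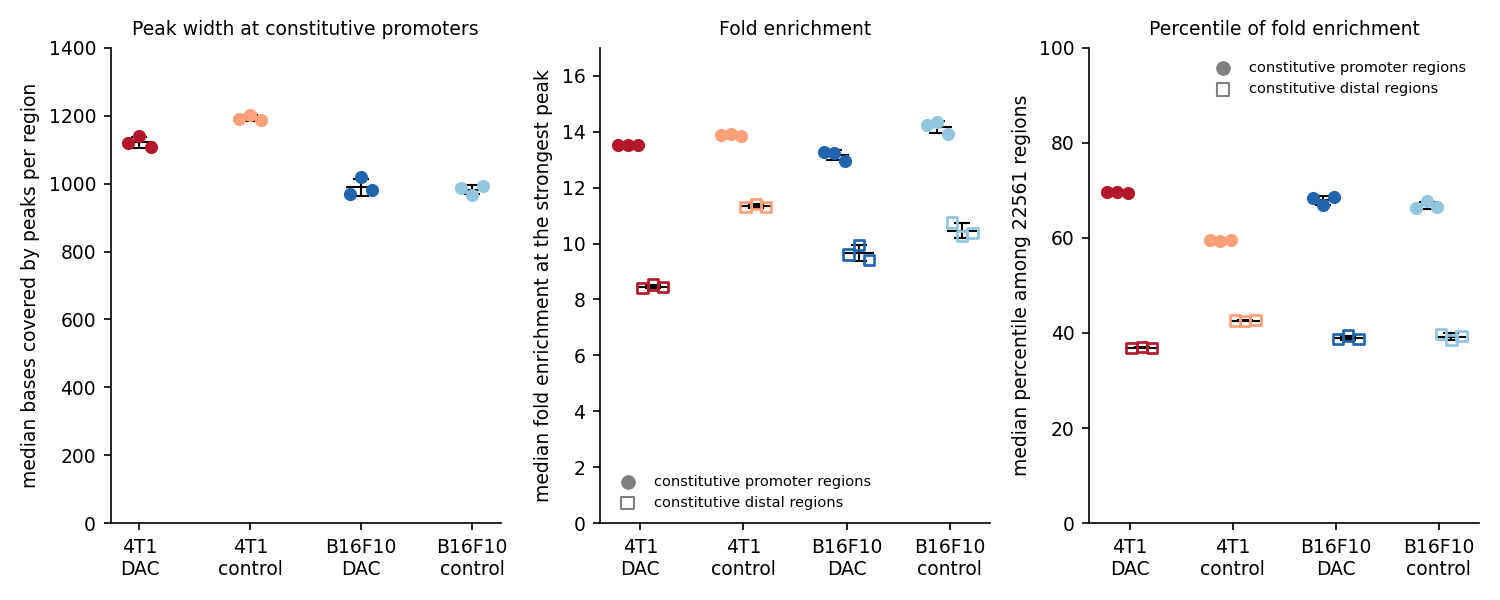
Median bases covered by peaks per region, median fold enrichment and median percentile of fold enrichment (vertical axes) in each of the 12 libraries, by group. Circles are constitutive promoter regions and open squares, in the fold and percentile panels, constitutive distal regions, 1 point a library, and bars are group means with SD (n = 3). Distal fold enrichment is lowest in DAC-treated 4T1 libraries (8.46), where the promoter percentile is highest (69.6).

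The strongest and weakest members, chosen by their mean percentile, stayed near the ends of the scale in all 12 libraries. Pex7, the receptor that brings a class of enzymes into peroxisomes, had a fold enrichment of 24.6, 23.2 and 24.7 in DAC-treated 4T1 libraries, 26.6, 25.6 and 27.0 in 4T1 controls, 21.7, 21.9 and 21.3 in DAC-treated B16F10 libraries and 24.2, 22.7 and 24.1 in B16F10 controls, and never fell below the 99.4 percentile. The regions of Exoc4, a subunit of the exocyst, Ddost, a subunit of oligosaccharyltransferase, Mrps27 with Ptcd2, Gm12258 and Bet1, a SNARE of transport from the endoplasmic reticulum, never fell below the 98.6 percentile. At the other end, the regions of Gpr108 with Trip10, Gm10720, Atp5d, a subunit of ATP synthase, Clic1 and Kmt2e were at or below the 1.3 percentile in all libraries.

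Control genes differed widely in level among the constitutive regions. B2m, the light chain of class I MHC, was at 86.4, 84.0 and 83.3 in DAC-treated 4T1 libraries and at 78.4, 73.6 and 78.8 in 4T1 controls, a rise of 7.64 points (limma adjusted p = 0.0194). Ranked by −log10 q, the B2m difference was -3.21 points (limma adjusted p = 0.0337), a call in the other direction. Ppia, the prolyl isomerase cyclophilin A, was at 48.8, 47.5 and 53.8 in DAC-treated 4T1 libraries and at 25.1 or below in the 3 4T1 controls (26.52 points, adjusted p = 0.000197). Polr2a, the largest subunit of RNA polymerase II, was at 40.0, 38.7 and 40.6 in DAC-treated 4T1 libraries and at 30.0, 32.2 and 33.0 in 4T1 controls (8.06 points, adjusted p = 0.0835). Others ranked low. Actb, the cytoskeletal actin gene, was at the 14.5, 15.1 and 13.4 percentile in DAC-treated 4T1 libraries and at the 9.0, 7.3 and 8.7 in 4T1 controls. Its rise of 6.00 ± 1.27 points (SE, n = 3 libraries a group, limma adjusted p = 0.0031) turned into -1.85 when regions were ranked by −log10 q (limma adjusted p = 0.673). Gapdh, a glycolytic enzyme, was at the 27.9, 25.5 and 27.9 percentile in DAC-treated 4T1 libraries and at the 19.2, 18.4 and 19.2 in 4T1 controls. Its rise of 8.17 ± 1.73 points (limma adjusted p = 0.00299) turned into -10.4 in the ranking by −log10 q (limma adjusted p = 0.000613), a call in the other direction. In a ranking of members alone it was -0.0739 (limma adjusted p = 0.964). Myc was at the 11.2, 11.1 and 11.2 percentile in DAC-treated 4T1 libraries and at the 10.9, 10.7 and 10.8 in 4T1 controls, a difference of 0.35 ± 1.17 points (limma adjusted p = 0.84).

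What DAC did to the rank of constitutive promoters was compared within each line. In 4T1, 3995 members (44.3%) rose and 459 (5.09%) fell past a limma adjusted p of 0.05, against 26.1% of all 22561 constitutive regions that rose and 17.6% that fell. Of the distal regions 13.9% rose and 26.0% fell. The median difference was 7.46 points over members and -2.92 points over distal regions, and 80.5% of members had a difference above 0. The split of members depended on the scale: 2169 rose and 946 fell when ranked by −log10 q (17.2% and 16.6% of all regions), 2148 rose and 839 fell when ranked within 10 bins of GC content (18.9% and 14.8% of all regions), and 1323 rose and 1159 fell when members were ranked among themselves (14.7% and 12.8%). Percentiles of the 3 DAC libraries lay above those of the 3 controls, with no overlap, in 5521 members and below them in 773, against 38.4% and 26.3% of all constitutive regions.

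The largest rises in 4T1 were as follows. Genes were named only where the groups do not overlap, so the absence of overlap in the named genes of every comparison follows from that choice. Cacng2, an auxiliary subunit of AMPA receptors, was at the 77.1, 69.3 and 88.7 percentile in DAC-treated 4T1 libraries and at the 16.3, 23.3 and 18.6 in 4T1 controls, a rise of 58.96 ± 4.48 points (SE, limma adjusted p = 6.95e-06). Its B16F10 libraries, at the 89.0 percentile or above, were high in both groups. Kbtbd6, a substrate adaptor of cullin 3 ligases, was at 76.0, 86.3 and 85.0 in DAC-treated 4T1 libraries and at 18.4, 36.2 and 32.2 in 4T1 controls (53.48 ± 8.92 points, adjusted p = 0.000763). Rps9, a protein of the small ribosomal subunit, was at 81.4, 85.5 and 79.0 in DAC-treated 4T1 libraries and at 37.7, 38.4 and 30.4 in 4T1 controls (46.48 ± 5.55 points, adjusted p = 0.000105). Of these 3, Cacng2 had the smallest standard error and Kbtbd6 the largest. The other rises named by the rule were those of Traf3ip1, a protein of intraflagellar transport (44.60 points), Cst3, the protease inhibitor cystatin C (43.78), Il17ra, the receptor of interleukin 17 (42.45), Ifit3b, an interferon-induced gene (42.00), and Ccdc86 (40.70). Adjusted p ran up to 0.00108 in these 5, that of Ifit3b.

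The largest falls in 4T1 were as follows. 2210016L21Rik was at the 13.4, 13.0 and 13.4 percentile in DAC-treated 4T1 libraries and at the 89.5, 91.4 and 85.4 in 4T1 controls, a fall of 75.53 points (SE 3.86, limma adjusted p = 7.7e-07). Its fold enrichment was 5.19, 5.22 and 5.18 in DAC-treated 4T1 libraries and 19.2, 19.8 and 18.2 in 4T1 controls. C1rl, a protease related to complement C1r, was at 10.7, 8.5 and 26.0 in DAC-treated 4T1 libraries and at 90.8, 62.2 and 91.4 in 4T1 controls (-66.42 ± 6.93 points, adjusted p = 4.65e-05). Plekhm3 was at 36.8, 36.7 and 35.4 in DAC-treated 4T1 libraries and at 94.5, 92.5 and 91.5 in 4T1 controls (-56.54 ± 4.33 points, adjusted p = 7.3e-06). The differences of the other 5 were -53.60 points for Ccdc57, -53.04 for C1ra, a subunit of complement C1 whose region lies close to that of C1rl on chromosome 6, -52.65 for Ajm1, a protein of apical junctions, -50.33 for Tef, a clock-related transcription factor, and -49.86 for Cfd, with adjusted p up to 8e-05. Around the summit C1rl had 0.0 CpG per 100 bases, C1ra 0.5, Ajm1 3.0, Tef 4.0, Cfd 4.5, Plekhm3 8.5 and Ccdc57 10.5.

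**Figure D3:**
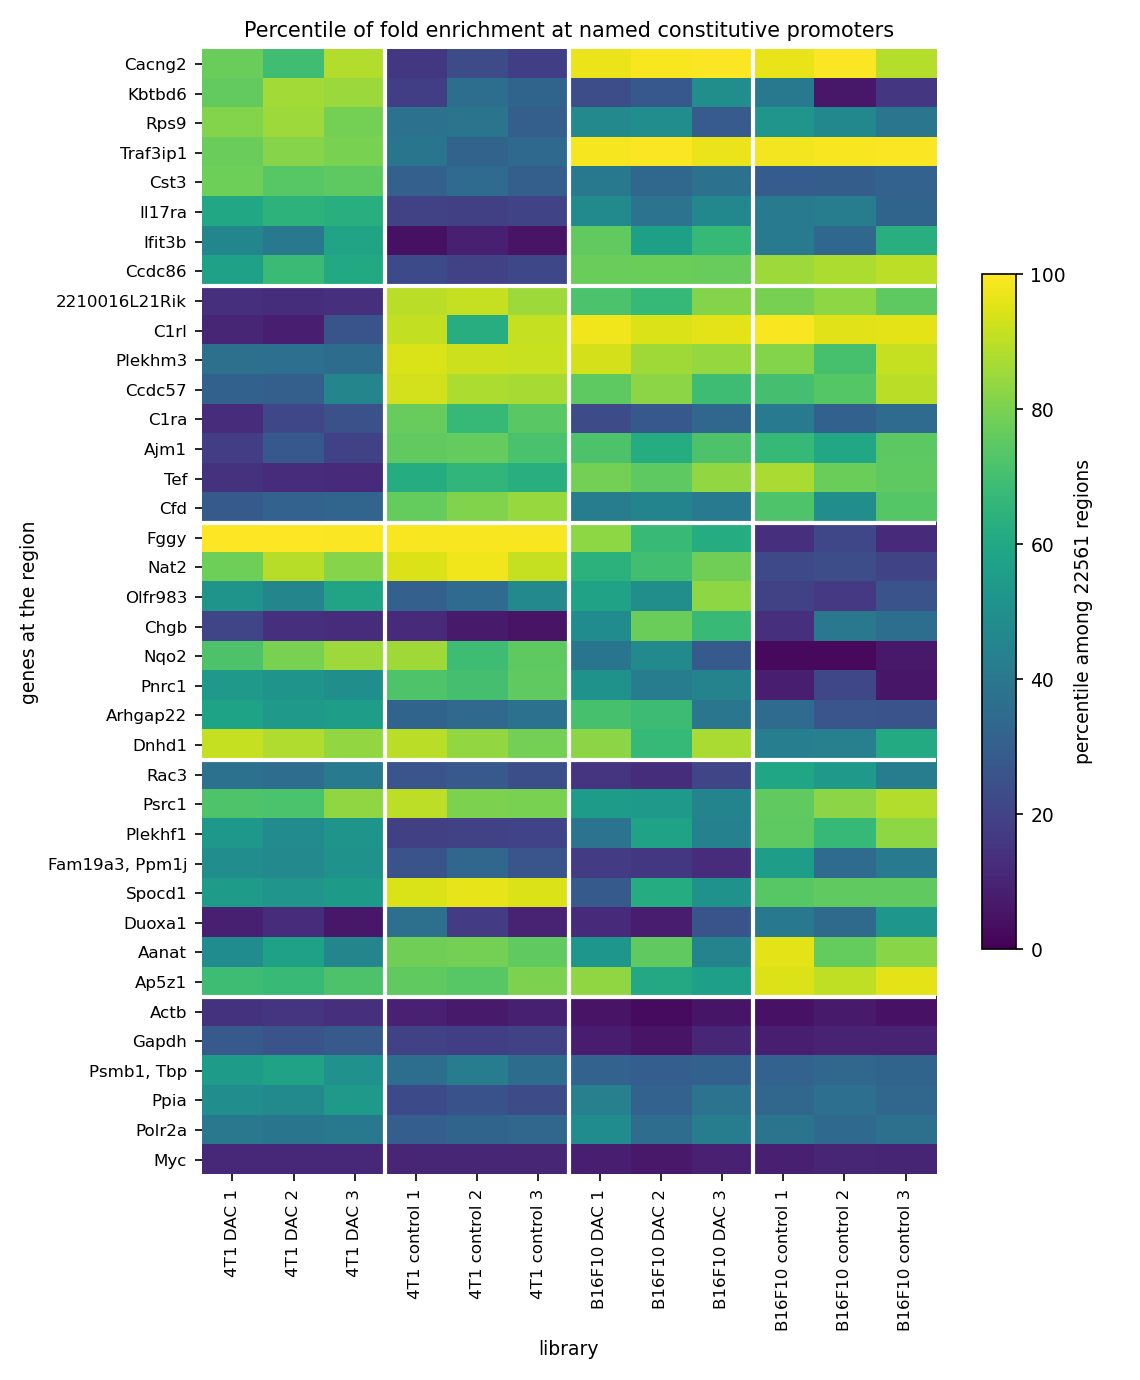
Percentile of fold enrichment among the 22561 constitutive regions (colour) in each library (columns, 3 a group) for the named members with the largest rises and falls under DAC in 4T1 and in B16F10, and for 6 control genes (rows). Cacng2 is high in DAC-treated 4T1 libraries (69.3 to 88.7) and low in 4T1 controls (16.3 to 23.3), and 2210016L21Rik is low in DAC-treated 4T1 libraries (13.0 to 13.4) and high in 4T1 controls (85.4 to 91.4).

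Falls in 4T1 were most frequent among members with little CpG. Members were divided by CpG density into 5 bins of equal size. In the bin of least CpG (0.0 to 5.5 per 100 bases) 36.3% rose and 10.0% fell. In the next bins, up to 8.0, 9.5, 12 and 21 CpG per 100 bases, 44.6%, 45.9%, 49.3% and 45.3% rose and 4.21%, 4.16%, 3.44% and 3.60% fell. The median percentile was highest in the middle of the range: from least to most CpG it was 56.9, 74.9, 75.5, 72.7 and 64.3 in DAC-treated 4T1 libraries and 50.0, 65.2, 66.2, 62.2 and 53.8 in 4T1 controls. Across members the Spearman correlation of the 4T1 difference was 0.125 with CpG density and 0.258 with merged width (n = 9021). Regions with 2 genes starting in opposite directions rose in 58.0% of cases, against 43.2% of the rest, and had a median of their mean percentile of 74.1, against 64.6.

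**Figure D4:**
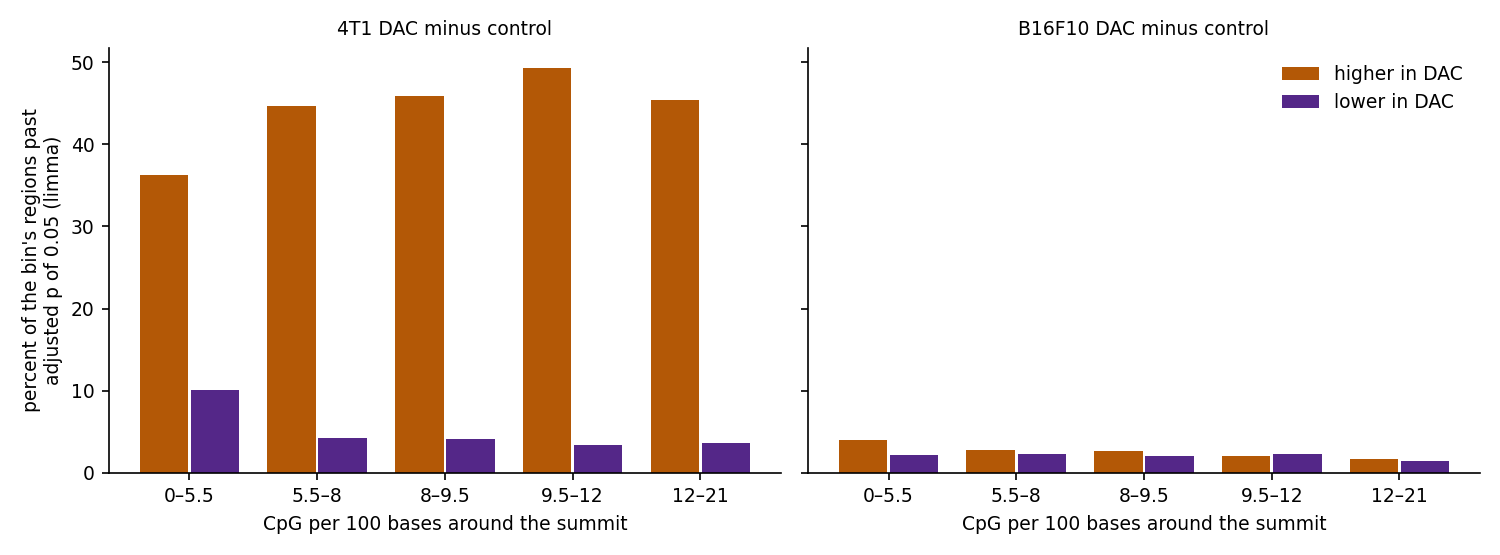
Percent of members past a limma adjusted p of 0.05 (vertical axis) that were higher or lower in DAC than in control libraries, by bin of CpG density around the summit (horizontal axis, CpG per 100 bases), in 4T1 (left) and B16F10 (right). In 4T1 between 36.3% and 49.3% were higher; in B16F10 between 1.72% and 4.04% were higher.

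Levels of members with and without each string were set side by side, with no test. Those with the ETS string had a median over regions of the mean percentile of 77.1, against 62.3 without it; the values were 76.5 and 63.9 for NFY, 71.7 and 64.5 for NRF1, and 79.9 and 65.4 for ZFP143. Members with the AP-1 string were at 49.4, against 66.1 without it, those with the CTCF string at 36.9, against 65.7, and those with the TATA string at 48.3, against 65.9. The values were close for the SP/KLF string (63.1 with it and 66.2 without), the E-box (66.6 and 65.4) and RUNX (66.3 and 65.5). In 4T1, 47.3% of members with the NRF1 string rose and 3.78% fell, against 44.0% and 5.23% of those without it. Of the 52 members with the ZFP143 string 38.5% rose and 13.5% fell, and of the 19 with the CTCF string 15.8% rose and 31.6% fell. Strings, CpG content and strength go together across regions, and none of these shares was tested.

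Peaks at members were narrower in DAC-treated 4T1 libraries. The median number of bases covered per member was 1122 ± 16.2 in DAC-treated 4T1 libraries and 1193 ± 8.14 in 4T1 controls (SD, n = 3 each). The bases covered were below those of all 3 controls in 3264 members and above them in 650, against 29.5% and 10.7% of all constitutive regions. In B16F10 the medians were 990 ± 25.1 in DAC-treated libraries and 982 ± 13.9 in controls, and 547 members were narrower and 699 wider with no overlap, against 7.09% and 8.24% of all constitutive regions.

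In B16F10, given the lower dose, few members changed rank. A limma adjusted p of 0.05 was passed by 241 members (2.67%) that rose and 185 (2.05%) that fell, against 4.15% and 3.62% of all constitutive regions, so the members' shares were below the background in both directions; this difference was not tested. The median difference was 0.556 points. Within GC bins 231 rose and 203 fell (4.11% and 3.66% of all regions), by −log10 q 238 and 238 (6.06% and 4.15% of all regions), and with members ranked among themselves 179 rose and 220 fell (1.98% and 2.44%). Without library B16F10 control 1, 153 rose and 116 fell, and 160 and 154 rose without the libraries 4T1 DAC 2 and 4T1 DAC 3, which enter through the shared estimate of spread. With B16F10 fitted alone 3 members rose and 0 fell by limma, with 509 and 403 past an unadjusted p of 0.05. Percentiles did not overlap between the groups in 961 members that were higher and 709 that were lower, against 11.1% and 10.3% of all constitutive regions.

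The largest rises in B16F10 were at promoters with little CpG. Fggy, a carbohydrate kinase, was at the 82.8, 67.5 and 61.8 percentile in DAC-treated B16F10 libraries and at the 13.6, 21.2 and 11.8 in B16F10 controls, a rise of 55.15 ± 4.58 points (SE, limma adjusted p = 0.000127). It was at the 99.0 percentile or above in all 6 4T1 libraries. Nat2, an arylamine acetyltransferase, was at 64.5, 69.8 and 78.5 in DAC-treated B16F10 libraries and at 22.0, 23.8 and 20.4 in B16F10 controls (48.83 ± 4.07 points, adjusted p = 0.000127). Nqo2, a quinone reductase, was at 38.7, 47.4 and 28.4 in DAC-treated B16F10 libraries and at 2.7, 2.4 and 6.7 in B16F10 controls (34.23 ± 5.75 points, adjusted p = 0.0057). Further rises were those of Olfr983, an olfactory receptor gene with its summit 1366 bp upstream (42.72 points), Chgb, the granule protein chromogranin B (34.78), Pnrc1, a nuclear receptor coactivator (34.18), Arhgap22, a regulator of small GTPases (30.62), and Dnhd1 (29.73), with adjusted p up to 0.0242. The 8 summits held between 0.5 and 4.5 CpG per 100 bases.

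Of the B16F10 falls, Rac3, a small GTPase, was the largest. It was at the 14.9, 12.9 and 20.8 percentile in DAC-treated B16F10 libraries and at the 59.2, 54.2 and 42.4 in B16F10 controls, a fall of 35.73 points (SE 4.19, limma adjusted p = 0.000816). Psrc1, a protein of the mitotic spindle, was at 54.8, 53.6 and 45.0 in DAC-treated B16F10 libraries and at 75.5, 82.6 and 88.4 in B16F10 controls (-31.02 ± 4.56 points, adjusted p = 0.00302). Differences of the other 6 lay between -28.50 and -26.96 points, at Plekhf1, the pair Fam19a3 and Ppm1j, Spocd1, which in mice is needed for piRNA-guided DNA methylation in male germ cells, Duoxa1, Aanat, an enzyme of melatonin synthesis, and Ap5z1. Their adjusted p ran from 0.00535 to 0.0419.

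The responses of the lines shared part of the members called. Of the members that rose in 4T1, 142 (3.55%) also rose in B16F10, which is 58.9% of the B16F10 list, beside the 44.3% of all members that rose in 4T1. Another 61 rose in 4T1 and fell in B16F10, 33.0% of those that fell in B16F10. A further 9 fell in 4T1 and rose in B16F10, and 15 fell in both. By the limma interaction contrast, the DAC minus control difference was higher in 4T1 than in B16F10 in 2174 members (24.1%) and lower in 272 (3.02%), against 15.7% and 11.3% of all constitutive regions. The split was 1403 and 582 when ranked by −log10 q (11.9% and 12.9% of all regions), 1110 and 493 within GC bins (11.4% and 9.56%), and 678 and 647 among members alone (7.52% and 7.17%).

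Control libraries were then compared between the lines. In 4T1 controls 1352 members (15.0%) ranked higher and 3270 (36.2%) lower than in B16F10 controls, against 26.3% and 31.1% of all constitutive regions (limma adjusted p under 0.05). The median difference was -3.67 points over members and 1.61 points over distal regions. The split was 2290 higher and 3443 lower when ranked by −log10 q (29.4% and 36% of all regions), 2001 and 2405 within GC bins (27.1% and 28.3%), and 2168 and 2204 among members alone (24% and 24.4%). Percentiles of the control groups did not overlap in 1686 members that were higher and 3727 that were lower in 4T1, against 29.6% and 34.8% of all constitutive regions. Lower rank in 4T1 grew more frequent with CpG content, with 29.4% of the bin of least CpG and 43.6% of the bin of most CpG. Peaks at members covered more bases in 4T1 controls: 5904 members were wider and 626 narrower with no overlap, against 49.4% and 14.9% of all constitutive regions.

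Single promoters differed between the lines across nearly the whole scale. Tnfrsf19, a receptor of the tumour necrosis factor family, was at the 84.7, 96.0 and 91.8 percentile in 4T1 controls and at the 7.6, 4.1 and 5.0 in B16F10 controls, a difference of 85.31 ± 3.81 points (SE, limma adjusted p = 1.99e-08). Lpcat2, an acyltransferase of phospholipid remodelling, was at 83.4, 89.7 and 81.9 in 4T1 controls and at 0.2, 0.4 and 0.2 in B16F10 controls (84.70 ± 3.29 points, adjusted p = 1.23e-08). Fggy (83.55), Tnfsf10, the death ligand TRAIL (81.88), Helz2 (81.78), Myzap (79.97), Apol7a (79.47) and Aldoc, an aldolase (78.26 points), came next, with adjusted p up to 3e-07. Foxred2, a flavoprotein of protein quality control, was at 1.7, 0.7 and 5.4 in 4T1 controls and at 92.3, 87.3 and 93.3 in B16F10 controls (-88.41 ± 3.45 points, adjusted p = 1.23e-08). Mks1, a protein of the base of the primary cilium, was at 0.7, 0.6 and 0.7 in 4T1 controls and at 87.7, 83.2 and 82.5 in B16F10 controls (-83.79 ± 3.77 points, adjusted p = 2.02e-08). Zfp595 (-86.12), Sgk2, a kinase (-81.69), Abat, an enzyme that breaks down GABA (-78.12), Zfand4 (-76.45), Mrtfa, a coactivator of serum response factor (-76.03) and Cacng2 (-75.69 points) were the other falls, with adjusted p up to 9.4e-08.

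Gene lists show which functions the constitutive promoters serve. Against 46.7% of all protein-coding genes, members held 80 of 85 genes of cytosolic ribosomal proteins, 75 of 78 of mitochondrial ribosomal proteins, 49 of 54 translation initiation factors and 36 of 37 aminoacyl-tRNA synthetases. They held 28 of 28 RNA polymerase subunits, 34 of 36 general transcription factors, 29 of 32 Mediator subunits and 43 of 47 splicing factors. Of genes for protein turnover and folding, 40 of 48 for the proteasome and 7 of 7 for the cytosolic chaperonin were at members. The counts were 15 of 16 for the anaphase promoting complex, 38 of 39 for DNA replication, 19 of 21 for nucleoporins and 75 of 84 for oxidative phosphorylation. Of factors that bind such promoters, among them NRF1, YY1, SP1 and NFY subunits, 24 of 25 had a member promoter, and Nfyc had a constitutive peak at another transcript start.

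Few tissue-specific genes were at members. Members held 4 of 1135 olfactory receptor genes, 1 of 329 vomeronasal receptor genes, 1 of 53 keratins, 0 of 57 clustered protocadherins and 5 of 39 Hox genes. The rule asks for a peak in both lines, which keeps out genes open in 1 line. Of the marker lists, 2 of 12 melanocyte markers, 0 of 12 mammary epithelial markers, 0 of 12 leukocyte markers and 1 of 12 fibroblast and endothelial markers, Col1a1, were at members. Counted in each library, 10 or 11 of the 12 mammary markers had a promoter peak in 4T1 libraries and 0 in B16F10 libraries. For the 12 melanocyte markers the counts were 2 in 4T1 and 8 in B16F10 libraries. Leukocyte markers had 0 to 2. Between these extremes stood 284 of 391 Zfp genes, the zinc finger genes of mouse nomenclature, 42 of 67 replication-dependent histone genes and 9 of 15 genes of the DNA methylation machinery.

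**Figure D5:**
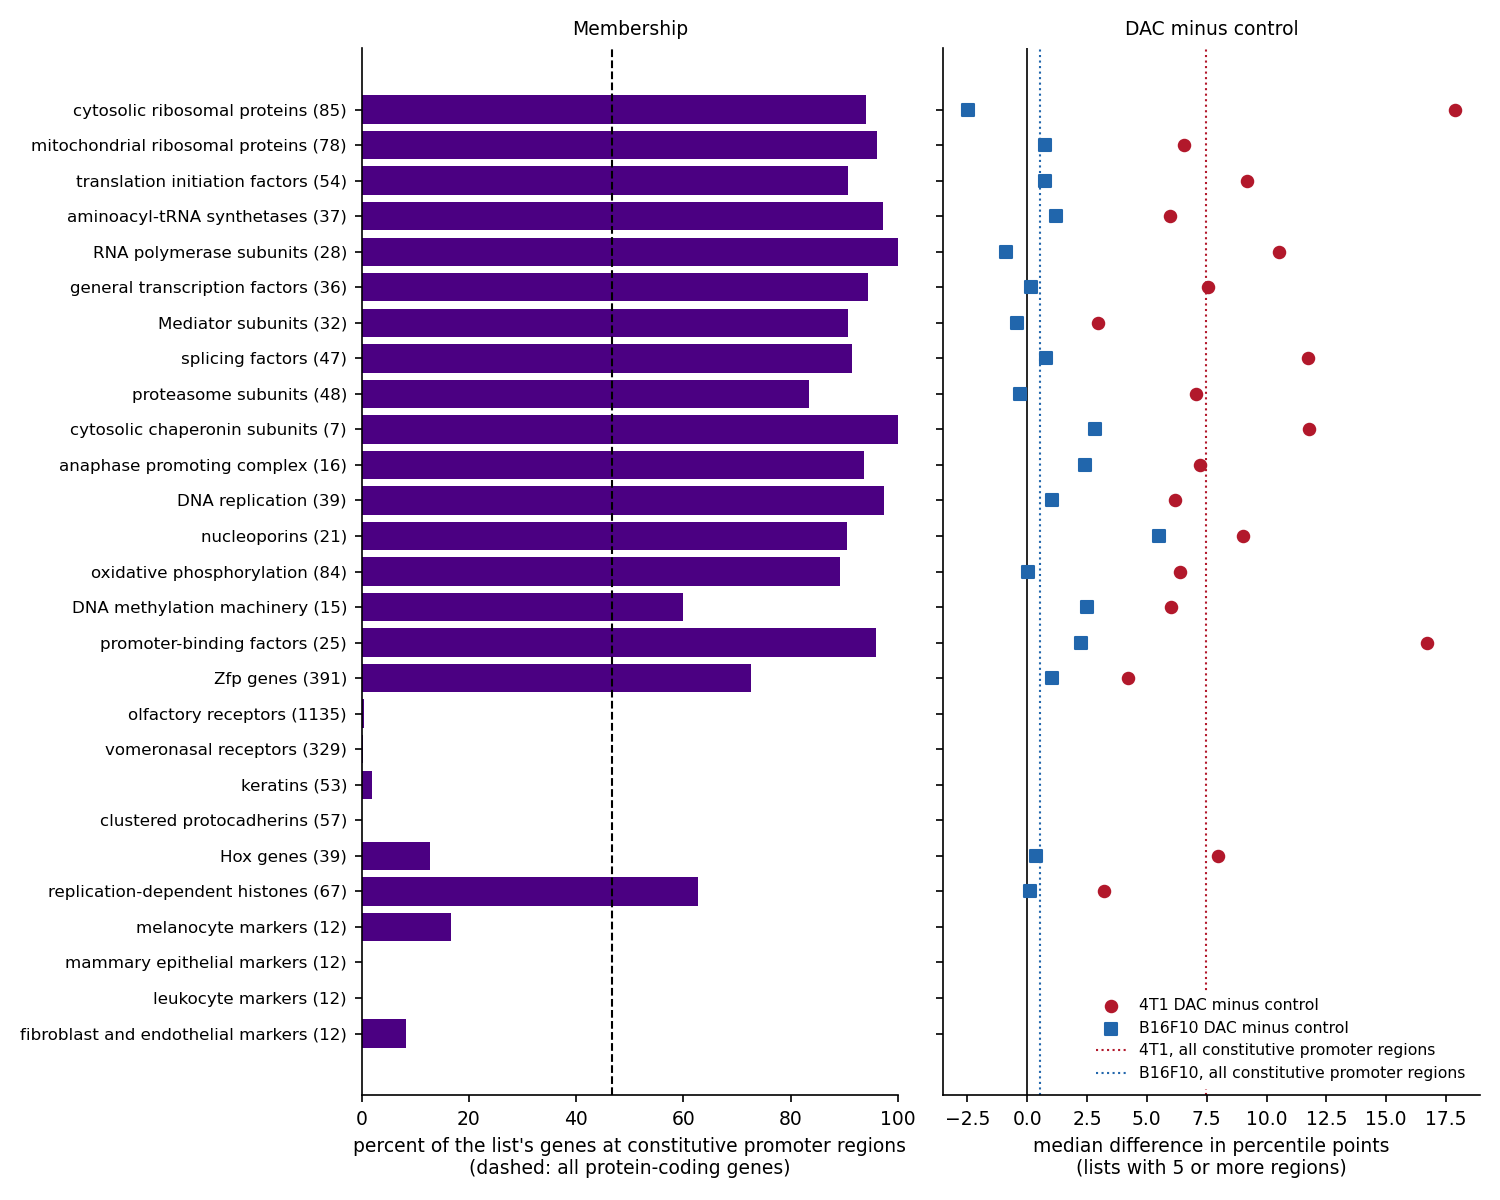
Left, percent of each list's genes (number in brackets) at a constitutive promoter region, with 46.7% of all protein-coding genes as the dashed line. Right, median difference of DAC minus control in percentile points over the list's regions, in 4T1 and in B16F10 for lists with 5 or more regions, with the median of all members as dotted lines (7.46 and 0.556 points); cytosolic ribosomal proteins are at 17.9 in 4T1 and -2.48 in B16F10.

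By fold enrichment, the cytosolic ribosomal protein genes had the highest median difference in 4T1 of the lists with 5 or more regions, whereas by −log10 q the Hox list (6.72 points) stood above them (6.56 points). Of their 82 regions 64 rose and 0 fell in DAC-treated 4T1 libraries by limma, beside 44.3% and 5.09% of all members. In B16F10 2 rose and 3 fell, beside 2.67% and 2.05% of all members. The median difference was 17.9 points in 4T1, against 7.46 points over all members, and -2.48 points in B16F10. On other scales fewer of the list's regions rose in 4T1, and so did fewer of all members. Ranked by −log10 q 34 regions were higher and 2 lower, beside 24.0% and 10.5% of all members. Within GC bins the counts were 44 and 0, beside 23.8% and 9.30%. Among members alone they were 31 and 1, beside 14.7% and 12.8%, and the median was 8.87 points. The list's median percentile was 69.0 in DAC-treated 4T1 libraries and 45.5 in 4T1 controls, and 56.0 in DAC-treated B16F10 libraries and 63.5 in B16F10 controls. Among controls, 43 of the 82 regions ranked lower and 2 higher in 4T1 than in B16F10.

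Examples show both patterns. Rpsa, the laminin receptor protein of the small subunit, was at the 70.1, 77.0 and 80.0 percentile in DAC-treated 4T1 libraries and at the 39.1, 37.7 and 38.2 in 4T1 controls (37.39 ± 4.59 points, limma adjusted p = 0.000123). Rps12 was at 50.9, 60.0 and 49.9 in DAC-treated 4T1 libraries and at 16.1, 19.4 and 14.8 in 4T1 controls (36.84 ± 4.54 points, adjusted p = 0.000124). Rps18, which shares its region with Vps52, rose in 4T1, at 30.8, 38.4 and 32.4 in DAC-treated libraries and 11.6, 8.5 and 7.5 in controls (24.64 ± 3.90 points, adjusted p = 0.000563). In B16F10 the same region fell, at 50.9, 49.9 and 41.2 in DAC-treated libraries and 72.2, 77.7 and 69.1 in controls (-25.66 ± 3.90 points, adjusted p = 0.00352). Rpl9 with Lias and Rpl11 likewise fell in B16F10 (-13.80 and -12.96 points, adjusted p = 0.0129 and 0.0107) and rose in 4T1 (26.35 and 18.88 points, adjusted p = 4.62e-05 and 0.000179). Rps29 rose in both lines, by 6.30 points in 4T1 and 9.71 points in B16F10 (adjusted p = 0.038 and 0.0238).

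Other genes of translation had lower medians in 4T1, with counts to be read against the 44.3% of all members that rose and 5.09% that fell. With members ranked among themselves these shares were 14.7% and 12.8%. Of 76 regions of mitochondrial ribosomal proteins 34 rose and 3 fell in 4T1, with a median difference of 6.56 points, a share close to that of all members, and 2 rose and 0 fell in B16F10. Among members alone 12 rose and 9 fell in 4T1 (median 1.16 points). Mrpl53 had the largest rise in 4T1 (30.45 ± 4.15 points, limma adjusted p = 0.000229). Of 49 regions of initiation factors 25 rose and 3 fell in 4T1 (median 9.19 points), against 8 and 4 among members alone, and 1 rose and 1 fell in B16F10. Eif4a2, a helicase of initiation, was at the 63.7, 61.3 and 61.9 percentile in DAC-treated 4T1 libraries and at the 34.5, 40.8 and 36.6 in 4T1 controls (25.01 ± 3.37 points, adjusted p = 0.000214). Eif3g, a subunit of initiation factor 3, rose in 4T1 (17.03 ± 3.45 points, adjusted p = 0.00234) and fell in B16F10, where it was at 36.0, 40.9 and 33.5 in DAC-treated libraries and at 61.2, 59.2 and 61.5 in controls (-23.84 ± 3.45 points, adjusted p = 0.00286). Of 35 regions of aminoacyl-tRNA synthetases 14 rose and 0 fell in 4T1, against 3 and 2 among members alone, and 2 rose in B16F10.

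Genes of transcription and RNA processing differed among themselves in how many regions rose, beside the 44.3% of all members that did. That share was 23.8% within GC bins and 14.7% among members alone. Of 28 regions of RNA polymerase subunits 15 rose and 0 fell in 4T1 (median 10.5 points), with 7 and 2 within GC bins and 2 and 2 among members alone (median 2.46 points), led by Polr2e (25.67 ± 4.96 points, limma adjusted p = 0.0018), and none passed in B16F10. Of 34 regions of general transcription factors 16 rose and 3 fell in 4T1, against 6 and 5 among members alone. Taf15 rose in both lines: it was at 81.6, 77.6 and 77.9 in DAC-treated 4T1 libraries and at 67.5, 58.6 and 56.7 in 4T1 controls (18.09 ± 3.65 points, adjusted p = 0.00231), and at 85.7, 84.8 and 93.4 in DAC-treated B16F10 libraries and at 59.3, 65.8 and 68.2 in B16F10 controls (23.50 ± 3.65 points, adjusted p = 0.00399). Mediator subunits, which link activators to RNA polymerase, had 6 rises and 0 falls among 31 regions (median 2.97 points), and 2 and 4 among members alone. Their median percentile was already 79.0 in 4T1 controls, which leaves less room for a rise in points. Of 43 regions of splicing factors 27 rose and 1 fell in 4T1 (median 11.8 points), against 13 and 1 among members alone. Snrpf, a core protein of spliceosomal snRNPs, was at 77.9, 78.1 and 74.5 in DAC-treated 4T1 libraries and at 49.2, 43.6 and 38.2 in 4T1 controls (33.20 ± 3.60 points, adjusted p = 5.84e-05). In B16F10 it fell, at 47.1, 50.9 and 43.3 in DAC-treated libraries and 64.4, 61.3 and 62.1 in controls (-15.48 ± 3.60 points, adjusted p = 0.0256).

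Genes of the factors that bind such promoters were also set beside the 44.3% of all members that rose in 4T1. Their 24 regions had a median percentile of 59.7 in DAC-treated 4T1 libraries and 39.8 in 4T1 controls, and of 39.8 in DAC-treated B16F10 libraries and 37.7 in B16F10 controls. In 4T1 20 rose and 0 fell by limma, with a median difference of 16.7 points, and in B16F10 0 passed. Ranked by −log10 q the 4T1 counts were 10 and 1, within GC bins 10 and 0, and among members alone 8 and 0. On these scales 24.0%, 23.8% and 14.7% of all members rose. Nrf1, the methylation-sensitive activator, was at the 66.6, 68.9 and 72.0 percentile in DAC-treated 4T1 libraries and at the 31.9, 45.6 and 36.1 in 4T1 controls (31.34 ± 4.13 points, adjusted p = 0.000188). In B16F10 it was at 61.4, 54.9 and 58.3 in DAC-treated libraries and at 54.3, 59.0 and 51.1 in controls (3.40 ± 4.13 points, adjusted p = 0.682). Elf1 with Wbp4 was at 60.4, 59.1 and 59.7 in DAC-treated 4T1 libraries and at 31.2, 28.8 and 27.9 in 4T1 controls (30.47 ± 2.90 points, adjusted p = 2.69e-05). Yy1 (28.00 ± 4.58 points, adjusted p = 0.000682), Gabpb1 (24.25 ± 3.68), Sp1 (18.32 ± 3.41) and Ctcf with Agrp (17.75 ± 3.02) also rose in 4T1, with adjusted p up to 0.00145.

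Genes of cell division, protein turnover and respiration had medians between 6.17 and 11.8 points in 4T1, around the 7.46 points of all members, of which 44.3% rose. That share was 24.0% by −log10 q and 14.7% among members alone. Of 39 regions of DNA replication genes 19 rose and 1 fell in 4T1, and 3 rose in B16F10. By −log10 q the 4T1 counts were 4 and 2, and among members alone 5 and 2. Mcm5, a subunit of the replicative helicase, rose in both lines: it was at the 76.4, 75.9 and 81.0 percentile in DAC-treated 4T1 libraries and at the 53.3, 54.4 and 55.3 in 4T1 controls (23.44 ± 2.49 points, limma adjusted p = 5.06e-05), and at 84.0, 82.6 and 81.1 in DAC-treated B16F10 libraries and at 66.3, 63.5 and 67.7 in B16F10 controls (16.73 ± 2.49 points, adjusted p = 0.00314). Mcm6 did so too (22.66 and 10.16 points, adjusted p = 6.25e-05 and 0.0313). Pcna, the sliding clamp, rose in 4T1 (25.62 ± 4.20 points, adjusted p = 0.000686). In 4T1 there were 7 rises and 0 falls in 15 regions of the anaphase promoting complex, 10 and 1 in 19 of nucleoporins, 19 and 3 in 40 of the proteasome, 5 and 0 in 7 of the chaperonin, and 33 and 2 in 77 of oxidative phosphorylation. Among members alone these counts were 3 and 1, 6 and 3, 7 and 3, 1 and 0, and 8 and 3. Sdhb, a subunit of succinate dehydrogenase, was at 79.8, 83.7 and 82.8 in DAC-treated 4T1 libraries and at 60.3, 55.3 and 56.1 in 4T1 controls (24.89 ± 5.10 points, adjusted p = 0.00251). Psmb7, a catalytic proteasome subunit, rose in 4T1 (21.54 ± 2.70 points, adjusted p = 0.000136) and fell in B16F10 (-11.61 ± 2.70 points, adjusted p = 0.0256).

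Of 15 genes of the DNA methylation machinery, the enzymes that write and remove the mark and the proteins that read it, 9 were at members. The annotated 5′ ends of Dnmt1, Tet1 and Tet3 were not, but these genes had a constitutive peak at another transcript start, and Dnmt3l and Tet2 had none at either. In 4T1 3 of 9 regions rose and 0 fell, beside 44.3% and 5.09% of all members. In B16F10 0 passed, beside 2.67% of all members that rose and 2.05% that fell. The rises in 4T1 were those of Mbd3 (15.29 ± 3.93 points, limma adjusted p = 0.00882), Zbtb33, the methyl-CpG binding protein Kaiso (8.16 ± 2.42, adjusted p = 0.0179), and Uhrf2 (7.47 ± 2.65, adjusted p = 0.0396). Mbd3 became -0.0665 when ranked by −log10 q and Uhrf2 -0.621 within GC bins. The list's median of 5.99 points became -4.11 among members alone and -2.02 within GC bins. Dnmt3a was at the 61.9, 66.3 and 69.8 percentile in DAC-treated 4T1 libraries and at the 61.8, 55.5 and 71.4 in 4T1 controls, which overlap (3.09 ± 6.06 points, adjusted p = 0.717). Uhrf1, which brings DNMT1 to newly copied DNA, was at 55.8, 55.7 and 57.8 in DAC-treated 4T1 libraries and at 51.0, 51.5 and 48.9 in 4T1 controls (5.99 ± 3.42 points, adjusted p = 0.18).

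The Zfp, histone and Hox families held both rises and falls in 4T1. Of 287 Zfp regions 86 rose and 17 fell in 4T1, a smaller share of rises than the 44.3% of all members, and 5 rose and 4 fell in B16F10. Among members alone 26 rose and 48 fell in 4T1, beside 14.7% and 12.8% of all members, and the median of 4.20 points became -0.580. Zfp358 fell, at the 46.7, 52.4 and 46.0 percentile in DAC-treated 4T1 libraries and the 83.7, 88.5 and 90.9 in 4T1 controls (-39.31 ± 4.98 points, limma adjusted p = 0.000147), while Zfp27 rose (34.82 ± 3.17 points, adjusted p = 2.17e-05). Histone promoters ranked low, with a median percentile of 26.1 in DAC-treated 4T1 libraries, 20.2 in 4T1 controls, 18.4 in DAC-treated B16F10 libraries and 16.4 in B16F10 controls. Of their 29 regions 11 rose and 1 fell in 4T1, against 3 and 7 among members alone, and the median of 3.20 points became -0.968. Of 5 Hox regions 2 rose and 1 fell in 4T1, beside 44.3% and 5.09% of all members. Hoxa3 with Gm28308 was among the rises (8.60 ± 2.69 points, limma adjusted p = 0.0231), and Hoxc6 fell (-22.11 ± 5.54 points, adjusted p = 0.00776). The list's median of 7.97 became -3.16 among members alone. By comparison 26 to 27 of all 39 Hox genes had a promoter peak in DAC-treated 4T1 libraries, 13 to 14 in 4T1 controls and 5 to 8 in B16F10 libraries. Of the 6032 other promoter regions, 3852 to 4225, 2686 to 2811 and 912 to 1207 had a peak in the same libraries. The Hox counts were not tested.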

How the data were processed

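ATAC-seq peak lists of 12 libraries, 3 in each of 4 groups, were used. Bowtie2, Picard, MACS2, DiffBind, ChIPseeker, FastQC, MultiQC and the build mm10 are named, per the submitters' processing notes, without versions, roles or settings. The authors deposited 1 narrowPeak list per library, without pooling. The authors' peak calling wrote the deposited score of each peak as a truncated multiple of its −log10 q. The authors' peak calling normalized the deposited fold enrichment of each summit to the local background of its own library. The authors' peak calling also computed the deposited −log10 p and −log10 q of each peak within its library. The deposited summit offset, written by the authors' peak caller, is a position in bases. Fold enrichment and −log10 q were used to rank or filter peaks within a list and are otherwise given as a description; summit offsets placed the summits. Depth is not given per library, so precision rests on the 3 libraries of a group.

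Peaks on chromosomes 1 to 19 and X that shared 1 bp or more were merged, and 5′ ends were those of 21755 protein-coding genes of GENCODE M21. Bases were read from GRCm38.p6 after the peak ends were checked against its chromosome lengths. Percentiles of the fold enrichment of the strongest peak were computed among the 22561 regions called in all 12 libraries. They were fitted with limma 3.58.1 (R 4.3.3, variance trend, 4 group means). P-values were adjusted by the Benjamini-Hochberg method over all 22561 regions, with a threshold of 0.05. All adjusted p are from this fit, apart from those given with another ranking. These come from the same model on that ranking, adjusted over the regions ranked. Ratios of bases, strings and shares were computed in Python 3.11.15 (pandas 2.3.3, numpy 2.4.6, scipy 1.17.1).

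The text names, per comparison, the 8 members with the largest rise and the 8 with the largest fall among those past the threshold whose groups do not overlap. It also names the 6 strongest, weakest and widest members, the 6 of highest and of lowest CpG density, those with most genes, a set of control genes, and the most changed genes of each list. Members and lists were chosen with earlier results of these data known. Alternatives changed the ranking, the peak and promoter rules, the fit, the GC content, the replicate block and the libraries included. Some items that this rule names are not reported here.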

Additional observations from a re-analysis of the deposited data

Results flagged for a closer look

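The DAC minus control difference itself differed between the lines, by the limma interaction contrast, in 2174 members that were higher in 4T1 than in B16F10 (24.1%, against 15.7% of all constitutive regions) and in 272 that were lower (3.02%, against 11.3%). Line and dose cannot be told apart here.

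The 8 members with the highest positive difference of this kind, in percentile points, were Plekhf1 (60.12), Cacng2 (55.56), Ccdc86 (51.15), Rps9 (50.92), Rps18 with Vps52 (50.3), Fam19a3 with Ppm1j (49.25), H13, a signal peptide peptidase (48.73), and Snrpf (48.69). At Plekhf1, an endosomal protein, the region was at 53.4, 48.2 and 51.9 in DAC-treated 4T1 libraries and at 18.9, 19.7 and 20.1 in 4T1 controls. In B16F10 it lay between 37.9 and 57.6 in DAC-treated libraries and between 67.0 and 83.0 in controls, so the lines moved in opposite directions with no overlap of groups in either.

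The 8 members with the lowest difference were 2210016L21Rik (-69.71), C1rl (-65.93), Plekhm3 (-63.15), Nat2 (-60.37), Nwd1 (-55.78), Pnrc1 (-55.03), Fggy (-54.67) and 4930505A04Rik (-54.46). Pnrc1 was at 54.1, 51.7 and 49.7 in DAC-treated 4T1 libraries and at 72.3, 70.3 and 75.5 in 4T1 controls. In B16F10 it was at 51.2, 42.5 and 44.8 in DAC-treated libraries and at 8.5, 21.2 and 6.2 in controls.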

How the results depend on the processing

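Percentiles among a fixed set of regions are relative, and the split of members in 4T1 and between lines depended on the ranking; the cause was not tested. Ranking by −log10 q gave 2169 members higher and 946 lower in DAC-treated 4T1 libraries, 2290 higher in 4T1 than in B16F10 controls, and 1403 higher and 582 lower in the difference between lines. Ranking members alone gave 1323 and 1159, 2168, and 678 and 647 for the same quantities. GC bins gave 2148 and 839 in 4T1, and 1110 and 493 in the difference between lines. With B16F10 fitted alone, and so fewer libraries behind the spread, 3 members rose and 0 fell.

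Same-numbered DAC and control libraries did not deviate together in percentile (correlations of -0.0482 to 0.0345). The ranks thus gave no sign of pairs, but they cannot tell whether the libraries were prepared as pairs. The replicate block gave 3586 higher and 424 lower in 4T1, and 100 higher and 88 lower in B16F10. Between the lines it gave 893 higher and 2113 lower, but there it compares the fitted level of replicate 1 in each line, not the group means. Those counts are therefore no check of the 1352 and 3270 found between the control groups. With the block and GC bins the counts were 1789 and 743 in 4T1, 112 and 109 in B16F10, and 781 higher in the difference between lines. The 1513 lower between the lines again rest on the level of replicate 1. Shares of all constitutive regions are not given for the block, for B16F10 fitted alone or for single libraries left out, so those counts describe members only.

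Leaving out 1 library gave 3181 to 4125 higher and 351 to 488 lower in 4T1, 153 to 277 and 116 to 179 in B16F10, 1131 to 1410 and 2913 to 3356 between the lines, and 1575 to 2200 and 195 to 274 in the difference between lines. It gave 9022 to 9043 member regions at 10154 to 10172 genes, a median width of 1345 to 1346 bp and 82.3% to 82.4% island-like members. That share was 73.6% over whole regions, 84.7% with a fold enrichment of at least 5, 84.5% with 49602 peaks in every library, 83.7% with promoters of 500 bp either way and 75.5% with every transcript start.

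Of named regions past the threshold, those that no longer passed it in at least 1 alternative were 56 of 114 in 4T1, 47 of 49 in B16F10, 30 of 71 between the lines and 34 of 71 in the difference between lines. The alternatives include the block, which compares another quantity between the lines. Single regions turned direction as follows. In 4T1 by −log10 q these were Mrpl41 with Pnpla7 (-0.105), B2m (-3.21), Actb (-1.85), Gapdh (-10.4), Med21 with Tm7sf3 (-2.25) and Mbd3 (-0.0665), among members alone Gapdh (-0.0739), and within GC bins, with or without the block, Uhrf2 (-0.621). In B16F10 by −log10 q Eif3c turned (-0.853). Between the lines by −log10 q they were Mrpl44 with Wdfy1 (-5.13), Cct3 with Tsacc (0.123), Eif4e (17.6), Rpl11 (1.20), Gapdh (-16.9), Zfp27 (-8.98), Nup62 with Atf5 and Il4i1 (-2.67), Eif3c (-8.57), Mcm5 (3.99), Taf5l with Urb2 (4.70), Mrpl45 (-5.67), Zfp654 with Cggbp1 (-1.42) and Mrpl18 with Tcp1 (0.0886). In the difference between lines they were Mrpl44 with Wdfy1 (1.45) and Gapdh (-7.88) by −log10 q, and Mcm6 (-0.321) among members alone. Peaks carry no per-library depth, so weak regions near the calling threshold cannot be weighed by reads.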

Other observations

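Gene families away from constitutive promoters also differed in how many of their promoters carried a peak. Of 57 clustered protocadherins, 23 to 32 had a promoter peak in DAC-treated 4T1 libraries and 6 to 7 in 4T1 controls, and 15 to 22 in DAC-treated B16F10 libraries and 16 to 18 in B16F10 controls. Of 53 keratins, 13 to 14 had one in 4T1 libraries and 2 to 3 in B16F10 libraries. Of the 6032 other promoter regions, 3852 to 4225 had a peak in DAC-treated 4T1 libraries and 2686 to 2811 in 4T1 controls. In B16F10 the numbers were 1028 to 1207 in DAC-treated libraries and 912 to 983 in controls. These counts were not tested.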
